A study of Drosophila melanogaster with 4 samples.

Results

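Open chromatin was described inside 5 large genes of Drosophila melanogaster, *Efa6*, *for*, *mamo*, *Ten-a* and *twin*, in pupal wings with and without targeted degradation of the chromatin remodeler subunit Osa. Each of these genes was chosen because its body holds a strong region that was open in both control libraries and in neither Osa-deGrad library. A region here is a set of overlapping peaks from the deposited lists, and it was placed in a gene when the summit of a peak lay between the gene's start and end. By this rule the 5 genes held 110 of the 24088 regions of the series, over 517 kb of gene body. The genes were thus chosen by presence in the 4 lists and by peak strength in the control lists, and values that rest on these measures are given as descriptions without a test.

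The libraries were made by FAIRE-seq, in which crosslinked chromatin is sheared and extracted with phenol, so that DNA free of nucleosomes stays in the aqueous phase and is sequenced. The 2 Osa-deGrad libraries came from female pupae of the genotype nub-GAL4, UAS-Nslmb-vhhGFP and osa-GFP, and the 2 control libraries from females with UAS-Nslmb-vhhGFP and osa-GFP but without nub-GAL4. All groups thus carried the tagged *osa* allele and the deGrad transgene, an F-box fragment joined to a nanobody that sends GFP-tagged proteins to the proteasome. Each library held 40 wings. Animals grew at 23 °C, were shifted to 29 °C as wandering larvae, were staged as prepupae at 0 to 12 h after puparium formation (APF) and gave wings after a further 24 h, at an age of 24 to 36 h APF. The driver nub-GAL4 is active in the wing blade and not in every cell of the dissected tissue, and no measure of the Osa protein was used here. The series' design text speaks of anti-GFP CUT&RUN on larval discs instead, and the sample labels were followed.

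Osa is an ARID protein of the Brahma (SWI/SNF) complex, which uses ATP to slide or evict nucleosomes and thereby changes which stretches of DNA are open to transcription factors. Large fly genes often carry enhancers in their introns, and such elements are commonly open in a tissue-specific way, whereas promoters tend to be open in many tissues. The 5 genes share no pathway. *Efa6* encodes an exchange factor for the small GTPase Arf6 that also limits microtubule growth at the cell cortex. *for* (foraging) encodes a cGMP-dependent protein kinase best known for its natural variants in larval feeding behaviour. *mamo* encodes a BTB-domain zinc finger transcription factor first studied in the germ line. *Ten-a* encodes a teneurin, a large transmembrane protein known for matching synaptic partners. *twin* encodes the CCR4 deadenylase of the CCR4-NOT complex, which shortens mRNA tails.

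The peak lists held 13959 and 17048 peaks in the Osa-deGrad libraries and 13953 and 18007 in the control libraries, so the replicate 2 lists were the longer ones in both genotypes. Read counts are unknown, and the authors' −log10 q values grow with depth. Strength is therefore given as a percentile, the share of peaks in the same list with a −log10 q value at or below that of the peak. The lowest −log10 q value was 1.31 to 1.40 per list, so a site without a listed peak may still have been weakly open. In whole wings, fewer cells with an open site and a site less open in each cell cannot be told apart. All 10 wing genes looked up, among them *nub*, *vg*, *ap* and *bs*, held a region found in all 4 lists. The share over all genes was not computed, so nothing is read from this count. Of the 10, 3 (*bs*, *Dll* and *rn*) also held a region with peaks in both control lists and no other. In *bs*, 1 region had peaks in both Osa-deGrad lists and no other.

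Inside the 5 genes the Osa-deGrad libraries had fewer peaks than the controls. The Osa-deGrad libraries had 54 and 59 peaks with a summit in these genes, against 70 and 67 in the control libraries (56.5 ± 3.54 and 68.5 ± 2.12, SD, n = 2 each). As shares of their own lists these were 0.387% and 0.346% in Osa-deGrad wings, against 0.502% and 0.372% in control wings. The shares overlapped between the genotypes, because Osa-deGrad 1 lay above control 2. Without the region that chose each gene, the control libraries had 65 and 62 peaks, or 0.466% and 0.344% of their lists.

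Of the 110 regions, 66 were present in at least 2 lists. Of these, 4 were Osa-deGrad-only, with a peak in the 2 Osa-deGrad lists and none in the controls. That is 6.06% of the 66, beside 3.35% of the 15813 such regions of the genome. Another 9, or 13.6%, were control-only, the reverse case, beside 5.45% in the genome. Set against the 46 regions with a peak in both control lists, the 9 were 19.6%, beside 8.26% in the genome. The genes were chosen for this contrast, so nothing is read from the control-only shares. Without the strongest control-only region of each gene, 4 of 61 regions were control-only (6.56%). Regions found in all 4 lists numbered 27 (40.9%, against 50.0% in the genome). These counts depend on both libraries of a genotype. With 1 list deciding for a genotype, control-only regions numbered 14 without Osa-deGrad 1, 14 without Osa-deGrad 2, 21 without control 1 and 27 without control 2. Osa-deGrad-only regions then numbered 9, 13, 7 and 8 in the same order of omission. The weaker peak of every one of the 4 Osa-deGrad-only regions ranked at 29.4 or lower. With a −log10 q minimum of 5 there were 0 Osa-deGrad-only and 9 control-only regions, and with a minimum of 10 there were 1 and 8. Regions were classed anew after each cut, so these were not all the same regions. The 1 was at *mamo* (13905501 to 13905972), where the cut took away a control 2 peak (−log10 q of 9.28). The *Efa6* region at 22590312 to 22590772 counted as control-only at both minima, because its Osa-deGrad peaks (3.81 and 3.92) were cut. The strongest control-only region of each gene stayed control-only at both.

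The remaining 26 regions in at least 2 lists had other patterns. A peak in both Osa-deGrad lists and 1 control list was found in 7 regions, and a peak in both control lists and 1 Osa-deGrad list in 10. Peaks of Osa-deGrad 2 and control 2 alone made up 6 regions, those of Osa-deGrad 1 and control 1 alone 1 region, and those of Osa-deGrad 2 and control 1 alone 2 regions. A further 44 regions were in a single list, 14 of them in an Osa-deGrad list and 30 in a control list, of which control 1 alone gave 18. The map of peaks along the genes shows all of them.

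**Figure D1:**
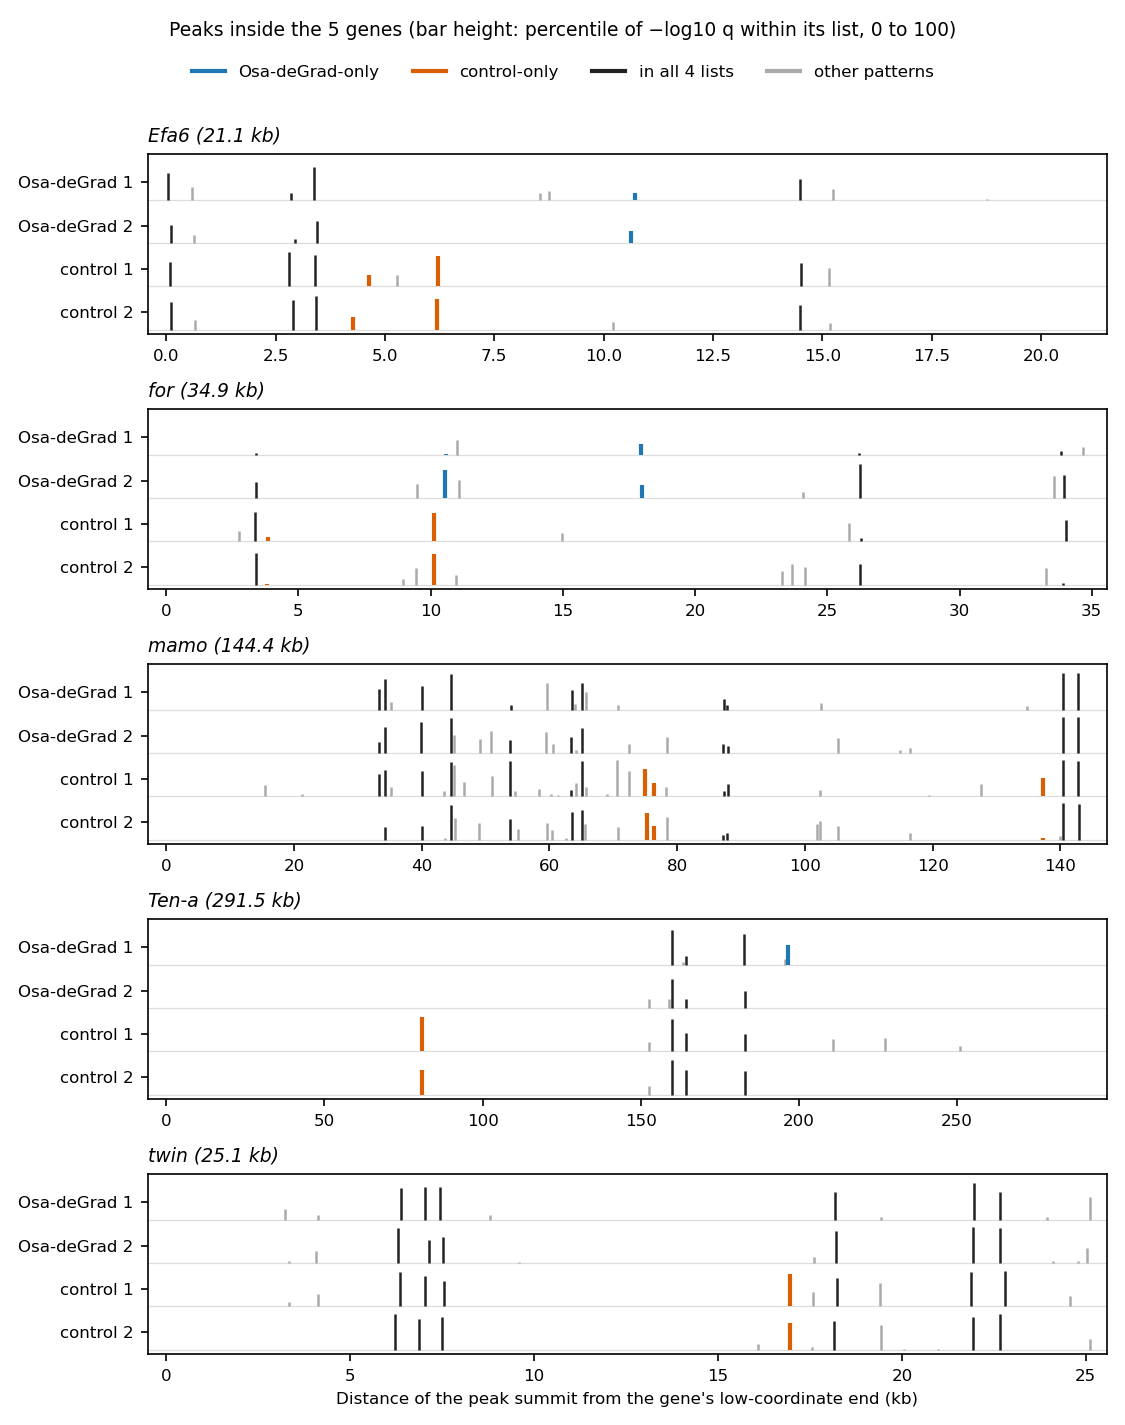
Peaks inside the 5 genes, with the distance of the summit from the gene's low-coordinate end in kb on the horizontal axis and a track per library. Bar height is the percentile of the strongest peak of each region within its own list, from 0 to 100, and colour gives the region's class. Control-only regions (9) appear in the lower tracks of every gene, and Osa-deGrad-only regions (4) in *Efa6*, *for* and *Ten-a*.

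*Efa6* spans 21.1 kb on 3R (22587755 to 22608842, gene ID 42665) and held 14 regions, of which 2 were control-only, 1 was Osa-deGrad-only and 4 were in all lists. Its strongest control-only region lay at 22593708 to 22594213, with percentiles of 83.5 in control 1 and 82.9 in control 2. The authors' fold enrichment there was 8.26 and 7.83. It was number 2 of the 862 control-only regions of the genome, ordered by the percentile of the weaker peak and, in ties, by the mean of both. The 2 control summits were 16 bp apart. The nearest region with an Osa-deGrad peak was 2010 bp away.

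Other signals that were lower or missing in at least 1 Osa-deGrad library lay on both sides of this region. On its high-coordinate side the nearest peaks were of Osa-deGrad 1 alone (22596224 to 22596348 and 22596420 to 22596563, percentiles of 19.7 and 22.8). Farther on that side lay a peak of control 2 alone (22597813 to 22598062, percentile 20.7). A region there without an Osa-deGrad 2 peak (22602798 to 22603118) ranked at 28.9 in Osa-deGrad 1 against 50.1 and 17.5 in control wings. The following regions lay on the low-coordinate side. A weaker control-only region (22591940 to 22592454, percentiles of 30.8 and 34.2) stood between the strongest one and an all-list region at 22591029 to 22591513. In that weaker region the control summits were 361 bp apart, so the 2 peaks overlapped without a common summit. A region in control 1 alone (22592924 to 22593148, percentile 30.3), and so missing in control 2 as well, lay beside it. Just before this stretch, the all-list region at 22590312 to 22590772 had percentiles of 17.7 and 12.2 in Osa-deGrad wings and 93.3 and 82.2 in control wings, with the authors' fold at 3.87 and 3.05 against 10.9 and 8.03. Both Osa-deGrad peaks there ranked low in their lists and both control peaks ranked high, so the genotypes did not overlap. The neighbouring region at 22591029 behaved otherwise, at 87.9 and 60.3 in Osa-deGrad wings and 84.3 and 91.0 in control wings, and its genotypes overlapped.

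The Osa-deGrad-only region of *Efa6* lay at 22598302 to 22598574, with percentiles of 18.7 in Osa-deGrad 1 and 32.9 in Osa-deGrad 2. It was a weak peak in both lists, and a peak of control 2 alone ended 239 bp away. An all-list region 14.5 kb into the gene (22602089 to 22602445) ranked at 57.6 and 0.959 in Osa-deGrad wings and at 64.2 and 66.4 in control wings, with the low value in Osa-deGrad 2 alone. A region across the low-coordinate end of the gene (22587636 to 22588105, summit 109 bp from that end) was open in all lists, at 73.1 and 49.3 in Osa-deGrad wings and 66.0 and 74.7 in control wings.

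*for* spans 34.9 kb on 2L (3622074 to 3656953, gene ID 44817) and held 18 regions, with 2 control-only, 2 Osa-deGrad-only and 3 in all lists. The microRNA gene *mir-4972* lies inside it. The strongest control-only region (3632077 to 3632391) reached percentiles of 76.1 and 82.3 in control wings and was number 6 of the 862. The authors' fold there was 7.25 in control 1 and 7.88 in control 2. Its summits in the control lists were 16 bp apart.

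An Osa-deGrad-only region lay 113 bp from that control-only region, at 3632505 to 3632712. It had percentiles of 1.04 in Osa-deGrad 1 and 75.3 in Osa-deGrad 2, so the libraries of the genotype differed widely and the region was strong in Osa-deGrad 2 alone. Another region followed after 204 bp (3632917 to 3633245), at 41.0 and 49.1 in Osa-deGrad wings and 26.7 in control 2, with no peak in control 1. The genotypes thus had neighbouring peaks that did not overlap. Summits of the control-only region (3632201 and 3632217) and of the Osa-deGrad-only region (3632668 and 3632616) were more than 250 bp apart. Joining peaks wherever summits were within 250 bp therefore could not join this pair. That setting gave 8 control-only and 5 Osa-deGrad-only regions over the 5 genes.

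The other specific regions of *for* were weak. The second control-only region (3625830 to 3626115) ranked at 11.2 and 1.33 and began 98 bp after the all-list region at 3625140 to 3625731. That all-list region ranked at 4.02 and 43.2 in Osa-deGrad wings and at 81.0 and 86.7 in control wings, so here too the genotypes did not overlap. The second Osa-deGrad-only region (3639880 to 3640345) ranked at 29.4 and 34.3. In the remaining all-list regions the order of the libraries was mixed. At 3648165 to 3648723 the percentiles were 5.63 and 92.5 in Osa-deGrad wings against 9.95 and 55.1 in control wings, with both replicate 2 lists above both replicate 1 lists.

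*mamo* spans 144 kb on X (13846116 to 13990527, gene ID 32353) and held the most regions, 45, of which 3 were control-only, 11 were in all lists and 0 were Osa-deGrad-only. Its strongest control-only region (13921043 to 13921604) had percentiles of 75.7 and 72.3 in control wings, where the authors' fold was 7.46 and 7.01, and was number 9. The control summits were 192 bp apart. A second control-only region lay 846 bp farther on (13922451 to 13922637), at percentiles of 37.7 and 36.4. Both stood near the middle of the gene, at 52.0% and 52.9% of its length. The nearest region with an Osa-deGrad peak was 2308 bp from the first and 1731 bp from the second. The all-list region nearest to the first (13911039 to 13911397, 9645 bp away) ranked at 71.3 and 68.2 in Osa-deGrad wings and at 95.9 and 79.5 in control wings. That nearest to the second (13933118 to 13933539, 10480 bp away) ranked at 30.4 and 23.3 in Osa-deGrad wings and at 14.9 and 13.6 in control wings.

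The third control-only region of *mamo* (13983249 to 13983443) ranked at 51.1 in control 1 but 5.17 in control 2. It lay 2781 bp from the strongest region of the gene, at 13986225 to 13986982, with percentiles of 99.7 and 98.6 in Osa-deGrad wings and 99.5 and 99.7 in control wings. The region at 13988541 to 13989331 ranked at 99.8 and 97.6 in Osa-deGrad wings and at 96.4 and 96.6 in control wings, so every library ranked both regions above 96. A further region of this strength, at 13890350 to 13890932, ranked at 96.3 and 95.5 in Osa-deGrad wings and at 94.2 and 95.2 in control wings. The lower values among all-list regions of *mamo* went both ways. The region at 13899732 to 13900313 ranked at 13.3 and 34.6 in Osa-deGrad wings and at 96.0 and 57.3 in control wings. At 13885659 to 13886225 the percentiles were 63.5 and 83.8 in Osa-deGrad wings and 68.2 and 38.0 in control wings.

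*Ten-a* is the longest of the 5 genes, at 291.5 kb on X (12043698 to 12335214, gene ID 32183), and number 7 in length among the protein-coding genes of the table. It overlaps 14 other annotated genes, 10 of them protein-coding, and yet held 12 regions, or 1 per 24.3 kb, against 1 per 1.19 kb in *twin* and 1 per 1.51 kb in *Efa6*. Its control-only region (12124541 to 12124929) had percentiles of 93.8 in control 1 and 68.1 in control 2 and was number 11. The authors' fold was 11.4 and 6.57. The control summits were 1 bp apart. The region stood alone, because the nearest other region of any list was 71158 bp away and the nearest all-list region 78441 bp away. The nearest gene end, 8613 bp away, belonged to the noncoding RNA gene *lncRNA:CR43960*.

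All other regions of *Ten-a* lay in its far part, from 52.3% of its length on. The strongest of them (12203371 to 12203990) ranked at 93.1 and 79.3 in Osa-deGrad wings and at 87.8 and 94.8 in control wings, with overlapping genotypes. The region at 12207959 to 12208320 ranked at 24.2 and 25.6 in Osa-deGrad wings and at 50.2 and 68.5 in control wings, without overlap. The Osa-deGrad-only region (12240101 to 12240445) ranked at 52.9 in Osa-deGrad 1 and at 0.240 in Osa-deGrad 2, close to the bottom of the second list.

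*twin* spans 25.1 kb on 3R (24196893 to 24221965, gene ID 42880) and held 21 regions, with 1 control-only, 6 in all lists and 0 Osa-deGrad-only. The gene *CG17786* lies inside it and *cav* overlaps its end. The control-only region (24213593 to 24214060) stood at percentiles of 87.8 and 72.3 in control wings and was number 8, at an authors' fold of 9.43 and 7.01. Its weaker peak tied with that of the *mamo* region, and the mean of both peaks set their order. Its control summits were 7 bp apart. It lay 769 bp from the nearest end of *CG17786*, the smallest distance to a gene end among the 9 control-only regions. Of all 110 regions, 11 had a summit within 500 bp of a gene end, and 8 of those 11 were in *twin*.

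A region with peaks in Osa-deGrad 2 and both control lists began 343 bp after the control-only region of *twin* (24214404 to 24214568, percentiles of 15.9 in Osa-deGrad 2 against 39.6 and 6.95 in control wings). The next all-list region began 753 bp after it (24214814 to 24215318) and ranked at 74.1 and 85.7 in Osa-deGrad wings and at 78.1 and 78.6 in control wings. At 24218418 to 24219203, 111 bp from an end of *CG17786*, the order of the genotypes was the other way round, with 98.3 and 99.0 in Osa-deGrad wings against 93.0 and 88.2 in control wings. The region just beyond it (24219378 to 24219879) ranked at 74.9 and 94.8 in Osa-deGrad wings and at 96.4 and 96.6 in control wings. The other 3 all-list regions formed a group at 24202839 to 24204753, and their percentiles lay between 63.2 and 95.9 in all libraries.

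**Figure D2:**
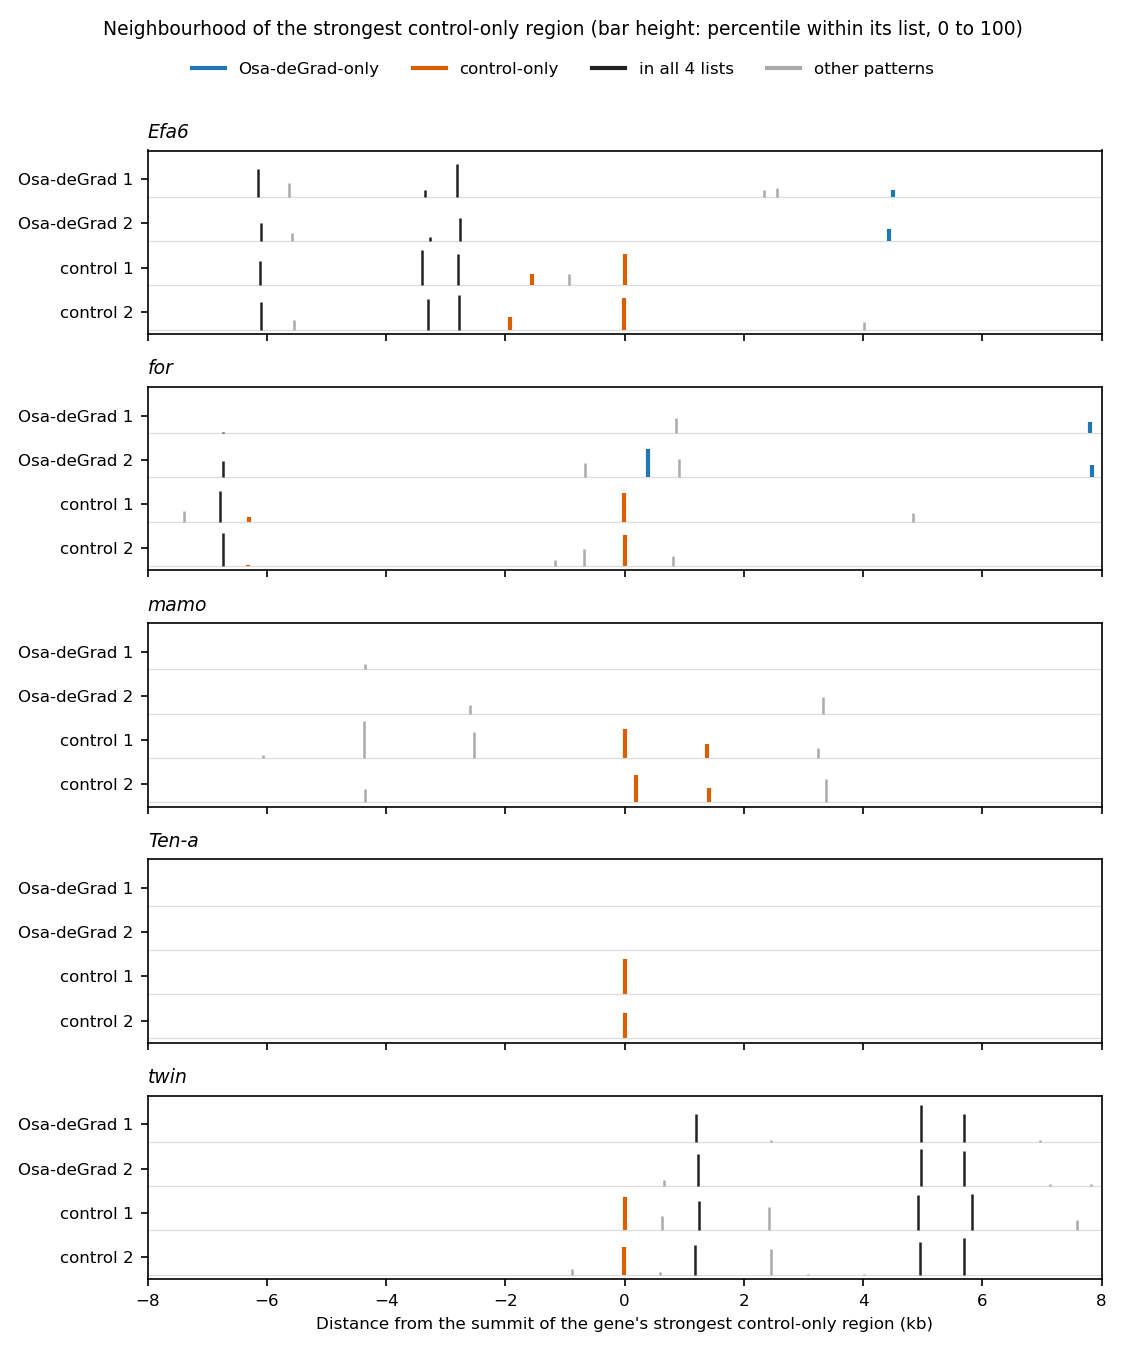
Peaks within 8 kb on either side of the strongest control-only region of each gene, drawn for regions inside that gene, with distance from its summit in kb on the horizontal axis and a track per library. Bar height is the percentile within the list and colour the region's class. The *Ten-a* region stands alone, whereas in *for* an Osa-deGrad-only region (percentiles of 1.04 and 75.3) lies beside the control-only one (76.1 and 82.3).

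The control-only regions were then set beside the all-list regions of the same genes. In the control lists the 9 control-only regions ranked from 11.2 to 93.8 in control 1 (median 75.7) and from 1.33 to 82.9 in control 2 (median 68.1). The 27 all-list regions ranked from 9.95 to 99.5 in control 1 (median 78.1) and from 0.194 to 99.7 in control 2 (median 78.6). The upper values of the control-only class belong to the 5 regions that chose the genes. The other 4 control-only regions ranked from 11.2 to 51.1 in control 1 (median 34.3) and from 1.33 to 36.4 in control 2 (median 19.7), all below the all-list medians. Control peaks were 286 and 338 bp wide in control-only regions (medians in control 1 and control 2), against 372 and 467 bp in all-list regions, and 172 and 173.5 bp in the 4 control-only regions that did not choose a gene. Merged widths had medians of 389 and 505 bp, but all-list regions join peaks of more lists, so this difference of -116 bp arises in part by construction.

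None of the control-only regions lay within 500 bp of an annotated gene end (0 of 9), against 3 of 27 all-list regions. Over the genome, 726 of 862 control-only regions and 3998 of 7900 all-list regions lay farther away than that, so nothing is read from the 0 of 9. Farther than 500 bp from gene ends, 3.05% of the genome's regions in at least 2 lists were Osa-deGrad-only and 8.80% control-only. The median distance to any gene end was 6205 bp (769 to 34084 bp) for the 9 control-only regions of the 5 genes. It was 7498 bp (109 to 53797 bp) for their 27 all-list regions. The 2 classes were not separated by distance, because the difference of medians, -1293 bp, turned its sign under other choices. It was 1102.5 bp with 5 kb of flank on either side of the genes and 1493.5 bp with a −log10 q minimum of 10. Without Osa-deGrad 2, control 1 and control 2 it was 645, 107 and 1827 bp, and without Osa-deGrad 1 it was -1849 bp. Over the whole series control-only regions lay 3724 bp from a gene end (median), against 520 bp for all-list regions, so the all-list regions of these 5 genes were themselves far from gene ends.

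The gap between the 2 control summits of a control-only region was 1 to 361 bp with a median of 16 bp, against 0 to 156 bp with a median of 49 bp in all-list regions. The shorter median rests on the regions that chose the genes, since in the other 4 the median gap was 44.5 bp. The nearest region holding any Osa-deGrad peak was 98 to 71158 bp from the control-only regions, with a median of 1731 bp, and of 1078.5 bp in those 4. The genes' classes are compared in the plot of class shares.

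**Figure D3:**
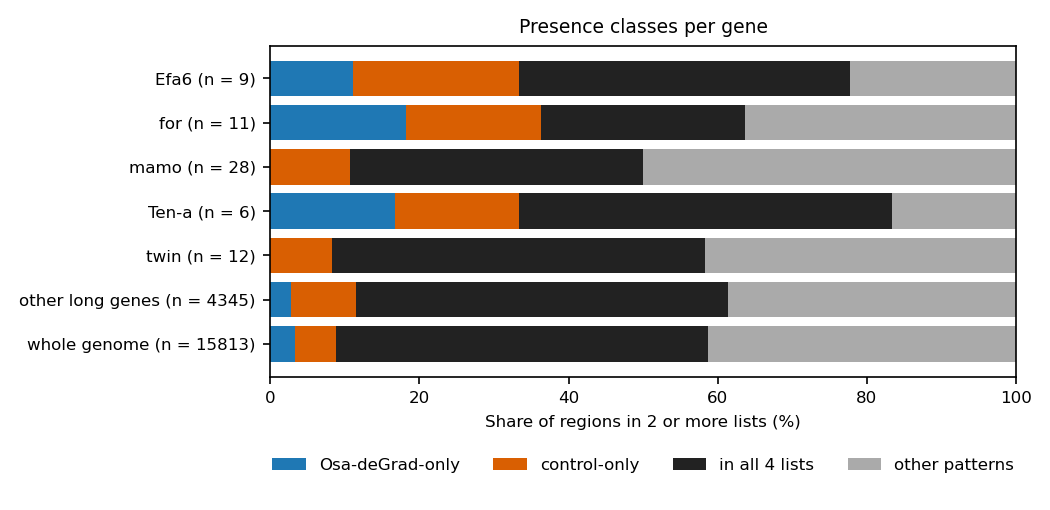
Share of regions present in 2 or more lists, in percent, by class for each of the 5 genes, for other protein-coding genes at least as long as the shortest of the 5, and for the whole genome (n is the number of regions). The control-only share runs from 8.33% in *twin* to 22.2% in *Efa6*, against 8.72% in other long genes, and each share of a single gene rests on 1 to 3 control-only regions.

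Strength at the regions shared by all lists was compared next, at regions that did not themselves choose the genes. Each library's peaks were ranked among the 7900 all-list regions of the genome, so that lists of unequal length were compared over the same regions. Over the 27 regions in the 5 genes the mean rank was 50.6 in Osa-deGrad 1 and 44.4 in Osa-deGrad 2, against 60.2 in control 1 and 51.1 in control 2. Both Osa-deGrad means lay below both control means, but Osa-deGrad 1 and control 2 were almost level. The difference was -8.17 percentile points, or -9.61 and -6.73 between libraries of the same number. It rested in part on control 1, since without that library it was -1.61, and with a −log10 q minimum of 5, which left 16 regions, it was -1.15. All-list regions in other long genes had a mean difference of -4.18 (n = 2170, SD over regions 20.7), and the genome's mean is 0 by construction. No test was made, because an exact permutation of 2 libraries against 2 cannot give a small p.

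*Efa6* had the largest difference of the 5 genes in these ranks. Its 4 all-list regions averaged 45.4 and 14.4 in Osa-deGrad wings and 64.9 and 57.04 in control wings, a difference of -31.1 points. These library means did not overlap between the genotypes, and every one of the 4 regions was lower on average in Osa-deGrad wings. Taken singly, only 1 of the 4 had genotypes that did not overlap (22590312, -70.8 points). Without the 4 regions of *Efa6* the mean over the other 23 regions was -4.19, close to that of other long genes. The means of *for* (-10.7), *Ten-a* (-8.10), *twin* (-2.73) and *mamo* (-2.16) were over 3, 3, 6 and 11 regions. Library means overlapped between the genotypes in *for* (2.22 and 45.8 in Osa-deGrad wings, 37.6 and 31.7 in control wings). They also overlapped in *Ten-a* (56.7 and 29.0 against 47.3 and 54.7) and *mamo* (50.9 and 44.3 against 59.4 and 40.0). In *twin* they did not (74.8 and 71.6 against 76.5 and 75.4).

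Both Osa-deGrad ranks lay below both control ranks in 7 of the 27 regions (25.9%), beside 17.6% in the genome. They lay above in 3 regions (11.1%), beside 18.0%. The genome shares include regions near gene ends. All-list regions over 500 bp from a gene end had a mean difference of -4.51 points, and shares over those regions alone were not computed. Among the 7, the difference was -70.8 points at *Efa6* (22590312), -60.9 at *for* (3625140), -51.5 and -26.3 at *mamo* (13899732 and 13911039), -27.5 at *Ten-a* (12207959) and -18.8 and -8.79 at *twin* (24219378 and 24202839). The first of these ranked 7.04 and 2.18 in Osa-deGrad wings and 88.6 and 62.3 in control wings among all-list regions, and the second 1.32 and 17.1 against 69.3 and 71.0. They lay 2935 and 6345 bp from the strongest control-only region of their gene. All 27 regions share a gene with such a region, because the genes were chosen for it. Closer all-list regions had smaller differences at *Efa6* (22591029, 2194 bp away, -20.8 points) and *twin* (24214814, 753 bp away, 4.24 points). The 3 regions with higher Osa-deGrad ranks were at *twin* (24218418, 16.3 points) and *mamo* (13988541 and 13890350, 4.24 and 2.36 points).

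**Figure D4:**
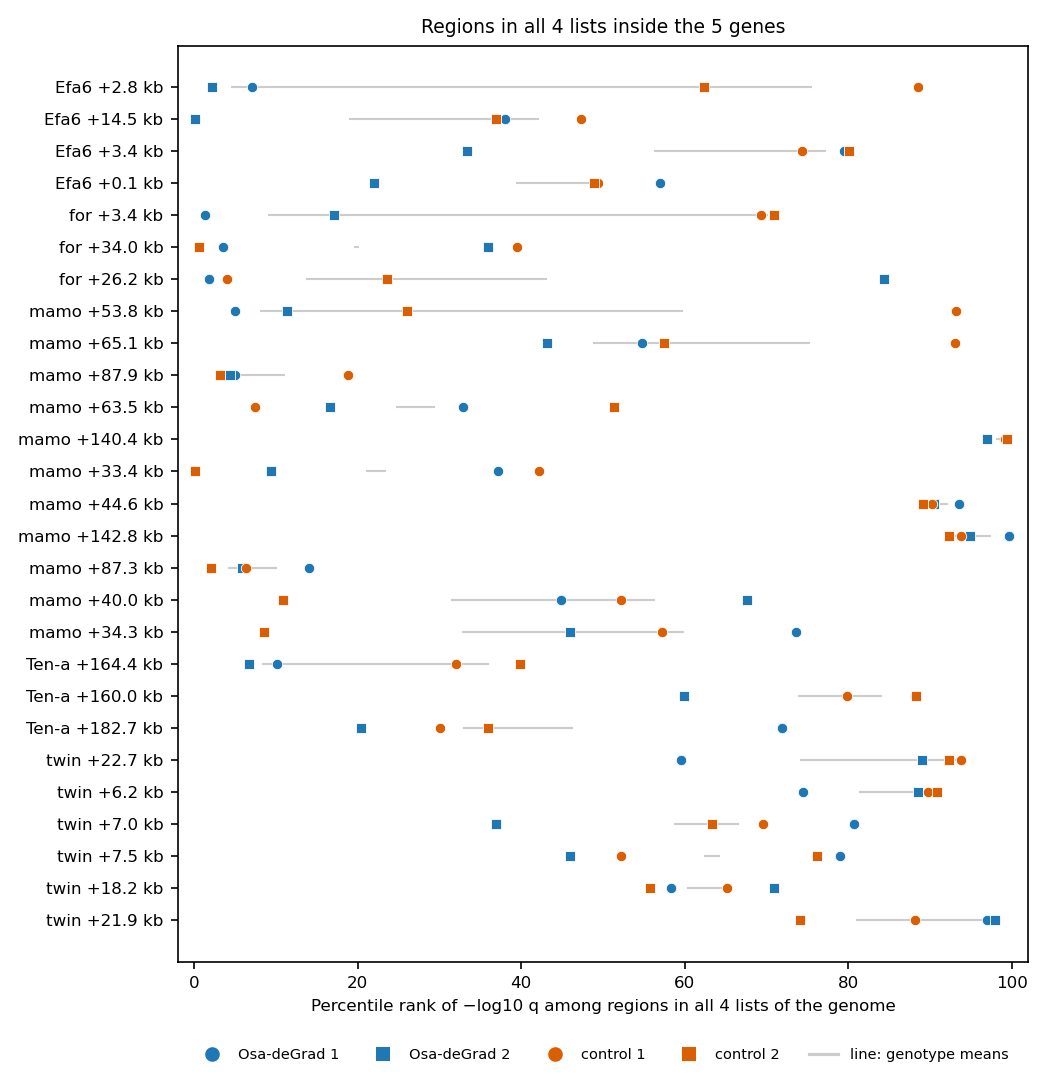
Rank of the 27 all-list regions of the 5 genes among the 7900 such regions of the genome (percentile of −log10 q, horizontal axis), with a row per region named by its distance from the gene's low-coordinate end. Points are the 4 libraries and the line joins the genotype means. The widest gaps are at *Efa6* +2.8 kb (-70.8 points), *for* +3.4 kb (-60.9) and *mamo* +53.8 kb (-51.5).

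Regions of a single genotype were also found in other long genes. The table held 973 other protein-coding genes of at least 21088 bp, the length of *Efa6*, and 11.1% of them had an Osa-deGrad-only region, 25.5% a control-only region and 5.65% both. All 5 genes were chosen for a control-only region, and 3 of them also held an Osa-deGrad-only one, beside 55 of the 248 other long genes with a control-only region. Among regions in at least 2 lists inside the other long genes, 2.74% were Osa-deGrad-only, 8.72% control-only and 49.9% in all lists. At least 3 control-only regions, as in *mamo*, were found in 32 other long genes, up to 10 in a gene. The 5 genes were chosen for the strength of such a region, and 32 other long genes held a control-only region whose weaker peak was above a percentile of 50. Over the genome 67 of 5157 regions with both control percentiles above 50 were control-only (1.30%), and 5 of the 67 were in these genes.

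The genes with the most similar pattern were those whose strongest control-only region ranked highest among the other long genes. They were *arr*, the Wingless coreceptor gene (91.3 in control 1 and 79.1 in control 2), *Glut4EF* and the overlapping *CG46467*, which share a region (91.5 and 74.8), *CG33158* (95.03 and 69.9) and *dpy*, a gene of the apical extracellular matrix (71.6 and 66.9). By the order of control-only regions that of *dpy* was number 12, just below that of *Ten-a*, and that of *CG33158* was number 10, just above it. *Glut4EF* differed from all 5 genes in number, with 10 control-only regions.

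Relatives of the 5 genes differ widely in length, so their regions are given as counts and no comparison was made. *Ten-m*, the other teneurin gene, had 2 control-only regions of 13, the stronger with a weaker peak at a percentile of 45.6, and 0 Osa-deGrad-only. Of 5 other genes for Arf6 or Arf exchange factors, *siz* had 1 Osa-deGrad-only and 1 control-only region, and the others had 0 of either. *Pkg21D*, the second cGMP-dependent kinase gene, had no region. Of 7 other CCR4-NOT genes, 0 had a specific region, and 4 had a region in all lists. Of 10 other BTB zinc finger genes, all had a region in all lists, *Trl* had 1 Osa-deGrad-only region, *fru* had 2 control-only regions and *bab1* had 1.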

How the data were processed

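FAIRE-seq peak lists of 4 libraries on dm6 were used as deposited, 1 list per library, so replicates were not pooled. Tools listed without roles in the submitters' processing notes are MACS2 2.1.2, deepTools 2.4.1, Picard 2.2.4, SAMtools 1.9 and Bowtie2 2.3.4.1, and the deposited file names carry the words trim, q5, sorted and dupsRemoved. Settings of the peak caller: not given in the sources used here. The authors' deposited lists give a fold enrichment (a ratio), a −log10 p and a −log10 q value per peak and a score, which was 10 times the −log10 q value without its decimals. These values were used to rank and describe peaks within a list. Depth is unknown, so no interval or floor was computed.

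Peaks overlapping by at least 1 bp were merged with Python 3.11.15 and pandas 2.3.3, and merging was checked on simulated lists. The summit of the peak at the highest percentile stands for a region, and the strongest peak for a list with several. Coordinates are 1-based. Gene spans came from RefSeq's gene table (Release 6 plus ISO1 MT, as in dm6), which gives no strand or exons, so exonic, intronic and promoter positions are not given. The planned motif and GC comparisons were not made, because no sequence was used here. The planned CCR4-NOT symbol CG13567 is an older name of *Not11* in that table and was counted once, as *Not11*. Named regions were all control-only and Osa-deGrad-only regions, the strongest all-list region of each gene and the all-list regions nearest to control-only ones. Regions named beyond these were chosen after their values were seen. The genes and lists were chosen with earlier results of these data known. The labels do not say that replicates came from separate crosses, so their spread may be technical.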

Additional observations from a re-analysis of the deposited data

How the results depend on the processing

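Of 74 alternative values, 38 stayed within 1 SD between replicates (counts, within 1.5 times) and 36 moved. The causes were not tested, except that fewer peaks or a single deciding list change counts by construction. With a −log10 q minimum of 5 there were 0 Osa-deGrad-only and 16 all-list regions, the width difference was -186 bp, the distance difference -420 bp and the rank difference -1.15 points. A minimum of 10 gave 1 and 11 regions, classed anew after the cut, and a distance difference of 1493.5 bp. Merging on 50% of the shorter peak or on summits within 250 bp gave -180 bp for width and -559 bp for distance, any overlap with the gene body gave -824 bp and flanks of 5 kb 1102.5 bp for distance. Without the strongest control-only region of each gene, 4 control-only regions were left, with differences of -264.5 bp in width and -1755 bp in distance. Without the regions of *Efa6*, a choice made after seeing the data, the rank difference was -4.19. Leaving out 1 library gave 14 to 27 control-only, 7 to 13 Osa-deGrad-only and 30 to 32 all-list regions, width differences of -312 to -148 bp, distance differences of -1849 to 1827 bp and rank differences of -12.1 to -1.61. The replicate block gave rank differences of -9.61 in pair 1 and -6.73 in pair 2, but the labels do not say that the numbers mark a shared batch. Both pairs count among the 38 by construction, because the SD of the rank difference was taken from these 2 values. The rank difference was negative under all 16 of its alternatives, which include both pairs. The width difference was negative under all 12, but it arises in part by construction, so nothing is read from its sign. The distance difference was positive under 5 of 12. No outlier check applies to groups of 2 libraries.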
